A study of Mus musculus with 32 samples.

Results

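The genes examined encode the receptors for glutamate, GABA and glycine, measured by RNA sequencing in 6 GMYC and 8 GTML mouse brain tumors. Members were the protein-coding rows of the count table whose mouse symbol begins with the receptor family names Gria, Grid, Grik, Grin, Grm, Gabr, Gabbr, Glra or Glrb, with Grm6 and Gabra5 left out. This gave 51 of 37310 genes, of which 4 encode AMPA, 3 delta, 5 kainate and 7 NMDA receptor genes, 7 metabotropic glutamate receptors, 18 GABA-A receptor subunits, 2 GABA-B receptor subunits and 5 glycine receptor subunits. The pattern for the delta receptors also took in Grid2ip, which encodes a scaffold protein of delta receptor synapses and is no receptor itself.

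GMYC tumors came from mice carrying Glt1-tTA and TRE-MYC, where the tetracycline transactivator tTA, made from the promoter of the glial glutamate transporter Glt1, switches on a human MYC transgene. GTML tumors came from the corresponding Glt1-tTA model with a MYCN transgene, so that both models share the transactivator, its promoter and the Tet-OFF design, and each biopsy is bulk tissue in which tumor cells and surrounding brain are read together. According to the study's methods both models had an FVB/N background, and GMYC mice were hemizygous for both transgenes. The labels name the model of each biopsy and give no age, sex, doxycycline exposure or animal, so it is not stated whether any biopsies share an animal, and p-values measure the spread between these biopsies. The study's methods describe most GTML libraries as generated earlier than the GMYC libraries, so the model and the time of library making cannot be told apart.

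Glutamate is the main excitatory transmitter of the brain, and GABA and glycine are the main inhibitory ones. Ionotropic receptors are ion channels built from several subunits, and which subunits a cell expresses sets how fast the channel opens and which ions it passes. Metabotropic glutamate receptors and GABA-B receptors instead signal through G proteins. In the cerebellum, mature granule neurons are known for the GABA-A subunit Gabra6 and the AMPA subunit Gria4, and inhibitory interneurons make GABA with the enzymes Gad1 and Gad2.

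Total counts per tumor ranged from 4602294 to 7279811, and between 0.0828% and 0.192% of the counts of a tumor fell on the 51 receptor genes. Myc was at 33.4 to 166 CPM (counts relative to the TMM-scaled library size) in GMYC and 2.60 to 8.68 CPM in GTML tumors, and Mycn at 7.65 to 34.4 CPM and 119 to 191 CPM, in the order of the labels. GTML tumor 2 stood apart from the other GTML tumors, with the lowest summed photoreceptor markers of all (171 CPM, against 460 to 1570 CPM in the other 13 tumors). Small nucleolar RNAs took up a share of counts that separated GMYC tumors 1 to 4 and GTML tumors 1 and 2, at 0.366% or more, from the other 8 tumors, at 0.272% or less. Y-linked genes had at most 16 counts in GTML tumors 2, 3, 5 and 8 and at least 1102 in each of the others, which included every GMYC tumor. For the called receptor genes, values without single tumors and on each side of the small nucleolar RNA split, where the gene was tested, are therefore given beside the call.

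Most receptor genes were detected at low levels. Of the 51 genes, 42 had at least 1 count in all 14 tumors. Per length, 9 genes had a median above 5 CPM per exon kilobase over the 14 tumors and 23 a median below 1. Among the genes reported here by name, the highest levels belonged to subunits of inhibitory receptors, with a median of 18.2 CPM per exon kilobase for the GABA-B subunit Gabbr1 and 15.8 for the GABA-A subunit Gabrb2. Grik5, a kainate receptor subunit, was the highest glutamate receptor gene at 13.1 CPM per exon kilobase. The obligatory NMDA subunit Grin1 was at 7.05 and the AMPA subunit Gria2 at 4.06. Over all genes of the set, the largest number of counts per exon base in any tumor was 0.314.

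**Figure D1:**
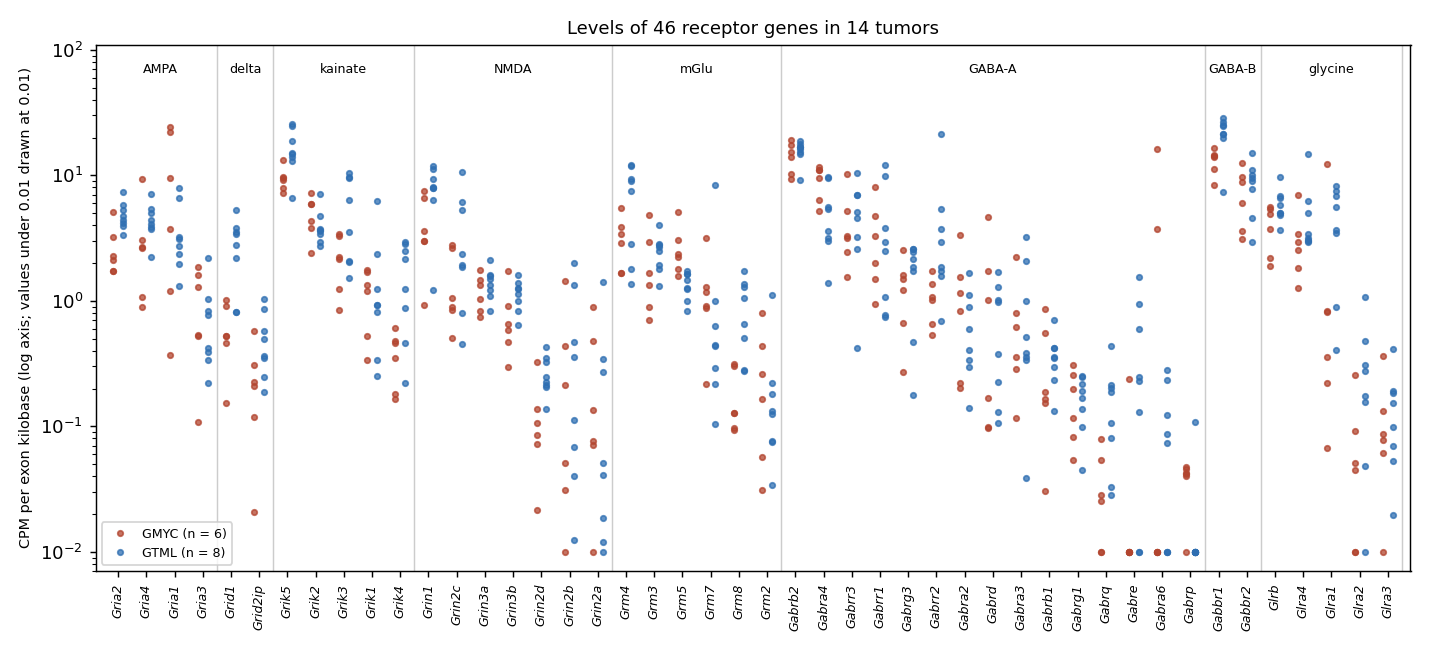
Each point is 1 tumor, with CPM per exon kilobase on a log axis and 46 receptor genes grouped by receptor class along the horizontal axis, GMYC in red (n = 6) and GTML in blue (n = 8). Of the genes drawn Gabbr1 had the highest median (18.2 CPM per exon kilobase), and genes such as Grin2b, Grin2a, Grm7 and Gabra6 spread widely between tumors of 1 model.

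The 2 models were tested against each other by edgeR's quasi-likelihood test over the 21024 genes that exceeded 1 CPM in 3 or more tumors, with Benjamini-Hochberg adjustment over all of them, and a gene was called at an adjusted p under 0.05. Of the 51 receptor genes, 48 passed the filter on low counts, and Gabra6, Gabrp and Glra2 did not. Called were 9 of the 48 (18.8%), against 21.2% of all genes tested, so the number of calls did not set the receptor genes apart. Higher in GTML were 8 of the 48 (16.7%, against 11.5% of all genes), namely Grm8, Grid1, Grik4, Gria2, Gabrr2, Grik5, Gabbr1 and Gabrq. Gabrq entered the test through GTML tumors alone, the model in which it was high. Higher in GMYC was Grm5 alone (2.08%, against 9.71% of all genes). The log2 fold change, GTML over GMYC throughout, was above 0 for 37 of the 48 genes (77.1%) with a median of 0.36, compared to 52.5% and 0.04 for all genes tested. For none of the 48 genes were the 2 models without overlap, against 4.62% of all genes tested (2.14% higher in GTML and 2.48% higher in GMYC). With the stricter rule of an adjusted p under 0.01 and a fold change of more than 1 on the log2 scale, 2 of the 48 passed, Grm8 and Grid1, against 3.22% of all genes. At 19 of the 48 genes the unadjusted p of the same test was under 0.05. The share of all genes under this threshold was not counted. Every called gene is under it too, so that share is at least 21.2%. In the 8 tumors below the small nucleolar RNA split, 9 of 45 receptor genes were higher in GTML by the same test (against 6.66% of all genes tested there) and 0 in GMYC (against 6.69%), among them Gabbr1, Gria2, Gria4, Grid1, Grik3, Grik5, Grin1 and Grm8. In the 6 tumors above it the test called 0 of 45 receptor genes, with 1 at an unadjusted p under 0.05, and 2 of all 18921 genes tested.

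**Figure D2:**
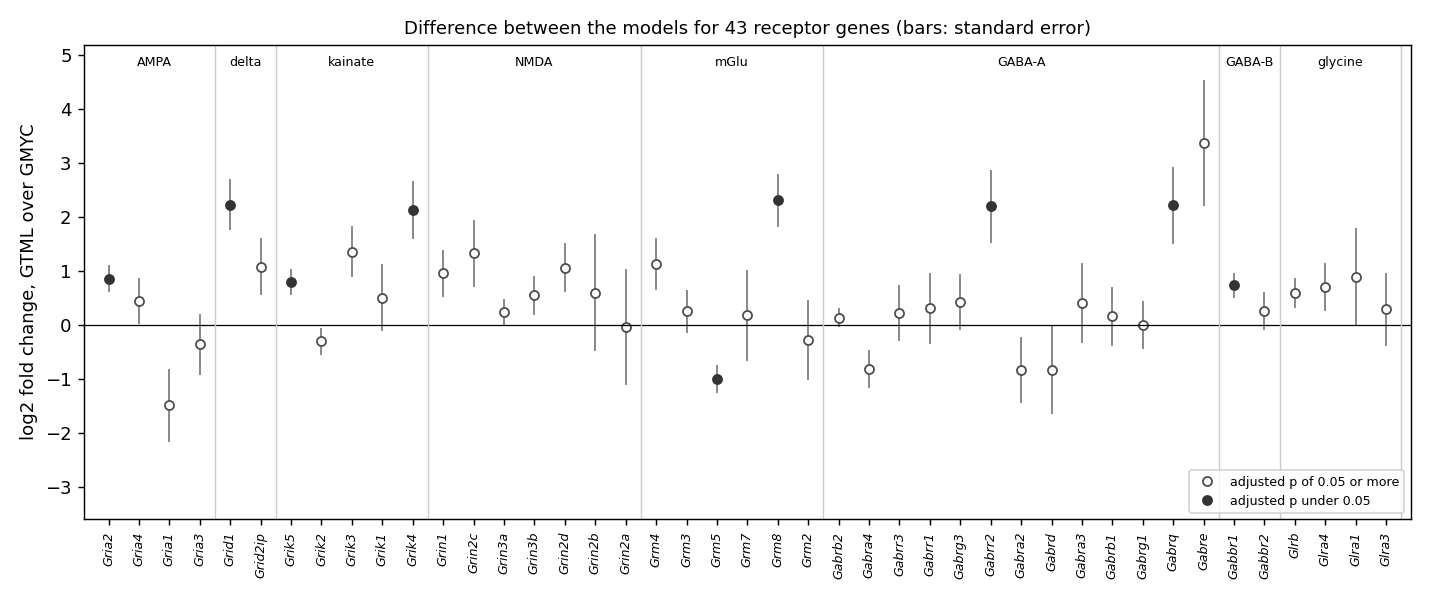
Points are the log2 fold change (GTML over GMYC) of 43 of the receptor genes tested, bars the standard error, and filled points the 9 genes with an adjusted p under 0.05 from edgeR's quasi-likelihood test. Of the filled points, 8 lie above 0 and Grm5 lies at -1.0.

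Among AMPA receptor genes, which encode the subunits of the fast glutamate channel, Gria2 was higher in GTML tumors. Gria2 encodes the subunit whose edited form keeps AMPA channels nearly closed to calcium. Its lowest, median and highest values were 26.7, 34.0 and 79.5 CPM in GMYC tumors and 52.2, 71.1 and 115 CPM in GTML tumors. All GTML tumors were above the GMYC median, and 3 were above GMYC tumor 4, the highest GMYC tumor, so the models overlapped through this 1 tumor. Gria2 rose by a log2 fold change of 0.86 (SE 0.250, adjusted p = 0.0258 by edgeR's quasi-likelihood test). The call was lost without GMYC tumor 3 (adjusted p = 0.0633), 5 (0.0573) or 6 (0.0518), while the log2 fold change stayed between 0.75 and 1.14 over all 14 fits that left out 1 tumor. It was 0.48 (adjusted p = 0.687 by the same test) in the 6 tumors above the small nucleolar RNA split and 1.23 (adjusted p = 0.0238) in the 8 below it. With small nucleolar RNA content as a term over all tumors, Gria2 was not called.

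The other AMPA genes differed more between tumors of 1 model. Gria1, a subunit of calcium-permeable AMPA channels when Gria2 is absent, was at 2.25, 40.0 and 146 CPM (lowest, median, highest) in GMYC and 7.95, 17.6 and 47.9 CPM in GTML tumors. GMYC tumors 4 (134 CPM) and 5 (146 CPM) were high and GMYC tumors 2 (2.25 CPM) and 6 (7.21 CPM) low, and the difference did not pass the test (log2 fold change -1.49, SE 0.680, adjusted p = 0.122 with edgeR's quasi-likelihood test, and 0.0455 without GMYC tumor 2). Gria4 was at 5.63, 16.7 and 58.4 CPM in GMYC and 14.0, 26.9 and 44.4 CPM in GTML tumors. Its highest value belonged to GMYC tumor 1. Gria4 had a log2 fold change of 0.45 (SE 0.426, adjusted p = 0.455 by edgeR's quasi-likelihood test) with all tumors and 1.12 (adjusted p = 0.0394) without GMYC tumor 1. Gria3, the X-linked AMPA subunit, was at 1.07 to 18.5 CPM in GMYC and 2.19 to 21.5 CPM in GTML tumors with a log2 fold change of -0.36 (SE 0.562).

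Within each tumor, the make-up of the AMPA class was described as the share of Gria2 among the reads per exon kilobase of Gria1 to Gria4, with no test. The share was 7.85% in GMYC tumor 5, 13.9% in tumor 1, 15.9% in tumor 4, 21.3% in tumor 3, 32.5% in tumor 2 and 42.9% in tumor 6, with a median of 18.6%. In GTML tumors it lay between 27.3% and 45.9% with a median of 34.0%. GMYC tumors were thus more spread out, with 4 tumors below every GTML tumor and 2 inside the GTML range.

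The promoter of Gria2 is shown since Gria2 was the AMPA gene called between the models. The window runs from 250 bases before to 50 bases after the RefSeq start site at chr3:80802786-80803085 (GRCm38.p6, minus strand, printed 5′ to 3′ in the direction of the gene). Capitals mark a match to GGACAGCG, a core of the element bound by the repressor REST, which silences neuronal genes in other cells. It occurs here as its reverse complement, 172 bases before the start site.
Gria2: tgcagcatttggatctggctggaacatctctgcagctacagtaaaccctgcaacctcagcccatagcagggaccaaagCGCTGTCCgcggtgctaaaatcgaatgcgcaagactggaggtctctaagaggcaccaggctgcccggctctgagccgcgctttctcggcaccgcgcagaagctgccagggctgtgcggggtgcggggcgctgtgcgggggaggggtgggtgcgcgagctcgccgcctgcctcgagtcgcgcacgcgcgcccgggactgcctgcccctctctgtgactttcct
These letters, on either strand, were present in 1 of 43 windows of receptor genes and in 1.26% of all 32851 promoter windows.

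The delta receptors are relatives of the AMPA receptors that organize synapses together with cerebellins. Grid1 was higher in GTML tumors, with 0.918, 3.10 and 6.07 CPM (lowest, median, highest) in GMYC and 4.88, 18.5 and 31.5 CPM in GTML tumors. GTML tumors 2 (4.88 CPM) and 8 (4.89 CPM) were low and lay among the GMYC values, and the other 6 GTML tumors were above every GMYC tumor. The log2 fold change of Grid1 was 2.23 (SE 0.476, adjusted p = 0.00757 by edgeR's quasi-likelihood test). Grid1 passed in all 14 fits that left out 1 tumor, with an adjusted p of at most 0.0203. It was higher in GTML on both sides of the small nucleolar RNA split, by 1.75 (adjusted p = 0.399, same test) above and 2.61 (adjusted p = 0.0320) below it on the log2 scale.

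Kainate receptors are glutamate channels in which the subunits Grik1 to Grik3 can work alone and Grik4 and Grik5 join them and raise the affinity for kainate. Both high-affinity subunits were higher in GTML tumors. Grik4 was at 0.985, 2.41 and 3.64 CPM (lowest, median, highest) in GMYC and 1.33, 10.1 and 17.7 CPM in GTML tumors. GTML tumors 3 (1.33 CPM) and 8 (2.75 CPM) lay within the GMYC range and the other 6 above it. Grik4 had a log2 fold change of 2.13 (SE 0.543, adjusted p = 0.0148 by edgeR's quasi-likelihood test), and it passed in all 14 fits that left out 1 tumor, while limma-voom gave an adjusted p of 0.0506. It was 2.25 (adjusted p = 0.284, same test) above the small nucleolar RNA split and 1.97 (adjusted p = 0.160) below it.

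Grik5, the most abundant glutamate receptor gene per length, was at 37.5, 48.4 and 68.6 CPM in GMYC and 33.8, 76.8 and 132 CPM in GTML tumors. GTML tumor 2 was below every GMYC tumor, GTML tumor 8 was just inside their range, and GTML tumors 5 (127 CPM) and 7 (132 CPM) were the highest. Grik5 rose by a log2 fold change of 0.80 (SE 0.246, adjusted p = 0.0323 by edgeR's quasi-likelihood test). The call was lost without any 1 of GMYC tumors 1, 3, 5 and 6 and GTML tumors 5, 6 and 7, with an adjusted p between 0.0542 and 0.0772 in those fits, and the adjusted p was 0.00438 without GTML tumor 2. Above the small nucleolar RNA split the log2 fold change was 0.12 (adjusted p = 0.911, same test) and below it 1.09 (adjusted p = 0.0404). Grik5 was not called with small nucleolar RNA content as a term, nor with the covariate from Y-linked genes.

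The other kainate genes did not pass. Grik3, named after its values were seen, came close, at 7.64, 19.7 and 30.4 CPM in GMYC and 13.6, 44.5 and 93.4 CPM in GTML tumors (log2 fold change 1.36, SE 0.477, adjusted p = 0.0523 by edgeR's quasi-likelihood test). GTML tumors 5, 6, 7 and 8 were at 57.3 CPM or more, and GTML tumors 1, 2 and 4 lay within the GMYC range. Leaving out any of these 3 brought the adjusted p to between 0.0254 and 0.0368. Above the small nucleolar RNA split its sign turned (-0.63), and below it the log2 fold change was 2.72 (adjusted p = 0.0281). Grik2, which can form channels alone, was at 31.8 to 95.4 CPM in GMYC and 36.3 to 94.5 CPM in GTML tumors, the highest GTML value being that of GTML tumor 2 (log2 fold change -0.30, SE 0.246). Grik1 reached 41.6 CPM in GTML tumor 3, while the other 13 tumors had at most 15.9 CPM. Within each tumor the log2 ratio of Grik2 to Grik1, in reads per exon kilobase, was between 0.44 and 3.51 in GMYC and between -0.79 (GTML tumor 3) and 4.40 (GTML tumor 2) in GTML tumors.

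**Figure D3:**
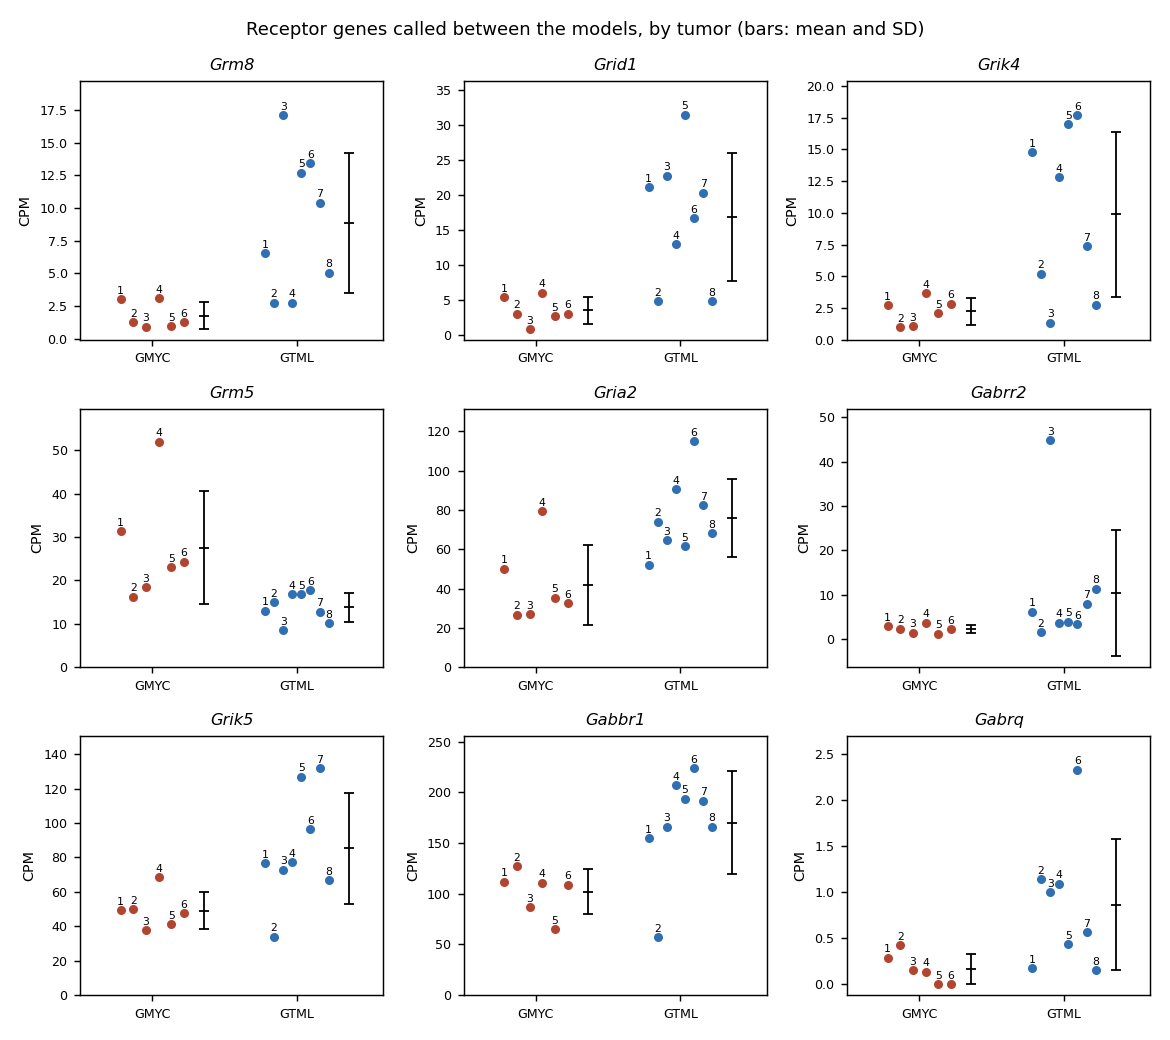
CPM of the 9 called receptor genes in every tumor, 1 panel per gene with its own linear axis, points numbered by tumor within the model (GMYC red, n = 6, GTML blue, n = 8), and bars giving the mean and SD. For 6 of the 8 genes higher in GTML, exactly 6 of the 8 GTML tumors were above every GMYC tumor, and for Grm5 the GTML tumors were between 8.49 and 17.7 CPM against 16.3 to 52.0 CPM in GMYC. Those 6 genes include Gabrq, which passed the filter on low counts through GTML tumors alone.

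NMDA receptors are glutamate channels that need glycine or D-serine as well and pass calcium. Every one contains Grin1, with Grin2 or Grin3 subunits beside it. By edgeR's quasi-likelihood test 0 of the 7 NMDA genes were called between the models, with 3 at an unadjusted p under 0.05 and against 21.2% of all genes called, and DESeq2 and limma-voom also called 0. Of the 7 genes, 6 had a log2 fold change above 0, and the median was 0.60. Grin1 was at 9.01, 32.0 and 72.3 CPM (lowest, median, highest) in GMYC and 11.9, 77.7 and 115 CPM in GTML tumors. GMYC tumor 5 (56 counts) and GTML tumor 2 (73 counts) were the lowest tumors, and 6 of the 8 GTML tumors were above every GMYC tumor. For Grin1 the log2 fold change was 0.96 (SE 0.437, adjusted p = 0.122 by edgeR's quasi-likelihood test) with all tumors and 1.12 (adjusted p = 0.0243) without GTML tumor 2. Above the small nucleolar RNA split it was -0.13 and below it 1.99 (adjusted p = 0.0277, same test). The exons of Grin1 share 1307 bases (13.5% of its exon bases) with the antisense gene Grin1os, and how strand was handled in counting is not stated, so reads of these genes cannot be told apart there.

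The Grin1 promoter is shown because it was the window of a receptor gene that held CACGTG, the E-box that MYC and MYCN bind with MAX, and the models differ by these factors. The window is chr2:25319138-25319437 (GRCm38.p6, minus strand, RefSeq, printed 5′ to 3′), and capitals mark both copies of CACGTG, the farther starting 181 bases before the start site.
Grin1: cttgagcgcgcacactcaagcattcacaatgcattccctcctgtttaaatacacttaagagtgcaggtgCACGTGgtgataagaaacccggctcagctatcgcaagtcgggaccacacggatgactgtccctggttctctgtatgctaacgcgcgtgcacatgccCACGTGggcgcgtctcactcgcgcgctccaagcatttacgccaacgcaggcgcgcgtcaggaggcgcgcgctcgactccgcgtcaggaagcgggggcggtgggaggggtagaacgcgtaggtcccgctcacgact
CACGTG was found in 1 of the 43 receptor windows (2.33%) and in 7.15% of all promoter windows. A further motif searched, GGGCGG (the GC box, on either strand), was in 55.8% of the receptor windows and 35.7% of all windows. Of other E-boxes, CAGCTG was in 4.65% of receptor and 16.3% of all windows and CATCTG in 4.65% and 17.2%, and a second part of the REST element, TTCAGCACC, was in 2.33% and 0.371%.

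The NMDA subunits Grin2a, Grin2b and Grin2c were uneven between tumors. Grin2b, which slows the closing of the channel, was at 0, 3.29 and 36 CPM in GMYC and 0.306, 5.81 and 50.1 CPM in GTML tumors. Its high tumors were GMYC tumor 4 (267 counts), GTML tumor 6 (258 counts) and GTML tumor 4 (182 counts). Grin2a, which replaces Grin2b as synapses mature, was at 0 to 15.9 CPM in GMYC and 0 to 25.2 CPM in GTML tumors, highest in GMYC tumor 4 and GTML tumor 6, and at 4 counts in GTML tumor 4. In GTML tumor 4 the log2 ratio of Grin2b to Grin2a, in reads per exon kilobase, was therefore 5.04, against -1.32 to 0.79 in the other 8 tumors with more than 3 counts of both. Grin2c, a subunit of adult granule neurons, was at 2.53 to 14.0 CPM in GMYC and 2.28 to 53.7 CPM in GTML tumors (log2 fold change 1.33, SE 0.626, adjusted p = 0.131 by edgeR's quasi-likelihood test), with GTML tumors 5, 7 and 8 above every GMYC tumor.

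Metabotropic glutamate receptors gave 1 call in each direction. Grm8, which dampens transmitter release as a presynaptic receptor coupled to inhibitory G proteins, was at 0.918, 1.27 and 3.10 CPM (lowest, median, highest) in GMYC and 2.74, 8.45 and 17.1 CPM in GTML tumors. GTML tumors 2 (2.76 CPM) and 4 (2.74 CPM) were within the GMYC range and the other 6 above it. The log2 fold change of Grm8 was 2.31 (SE 0.491, adjusted p = 0.00757 by edgeR's quasi-likelihood test), and it passed in all 14 fits that left out 1 tumor, with an adjusted p of at most 0.0227. It was 1.17 (adjusted p = 0.469, same test) above the small nucleolar RNA split and 3.14 (adjusted p = 0.0295) below it. In GMYC tumors Grm8 rested on 6 to 23 counts.

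Grm5, which signals through calcium release and is high in early postnatal brain and in immature glia, fell in GTML tumors. It was at 16.3, 23.7 and 52.0 CPM in GMYC and 8.49, 14.0 and 17.7 CPM in GTML tumors. Of the GTML tumors, 5 were below every GMYC tumor and the other 3 reached just into the GMYC range, while GMYC tumor 4 was the highest of all. Grm5 had a log2 fold change of -1.0 (SE 0.260, adjusted p = 0.0164 by edgeR's quasi-likelihood test) and passed in all 14 fits that left out 1 tumor. The call was lost with the covariate from Y-linked genes (adjusted p = 0.109, same test) and with small nucleolar RNA content as a term (0.0504). It was -1.06 (adjusted p = 0.429, same test) above and -0.79 (adjusted p = 0.119) below the small nucleolar RNA split. Summed astrocyte and Bergmann glia markers, 9 genes of which 0 passed the test, were at 811 to 1440 CPM in GMYC and 551 to 990 CPM in GTML tumors, and GMYC tumor 4 was the highest in them too. Oligodendrocyte precursor markers were at 64.0 to 178 CPM and 27.2 to 124 CPM, with 2 of 6 called and both lower in GTML (Olig1 and Olig2, lowest at 0.365 CPM). Their part in the Grm5 difference was not tested. Fewer cells of a type and less RNA per cell cannot be told apart in bulk tissue.

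Grm4, the receptor of granule neuron terminals, was at 9.94, 18.8 and 32.9 CPM in GMYC and 8.21, 49.3 and 71.6 CPM in GTML tumors. The GTML tumors fell into 5 above every GMYC tumor and 3 (tumors 1, 3 and 4) at 16.8 CPM or less. Its log2 fold change was 1.13 (SE 0.477, adjusted p = 0.0960 by edgeR's quasi-likelihood test), and the adjusted p was 0.0430 without GTML tumor 4. Grm3, a receptor of neurons and astrocytes, was at 2.14 to 14.7 CPM in GMYC and 4.01 to 12.2 CPM in GTML tumors (log2 fold change 0.26, SE 0.398).

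GABA-A receptors are chloride channels, most of them built from alpha, beta and gamma subunits. Gabrb2, a beta subunit, did not pass the test, at 59.5, 92.9 and 122 CPM (lowest, median, highest) in GMYC and 58.6, 105 and 119 CPM in GTML tumors, and was lowest in GTML tumor 2 (log2 fold change 0.14, SE 0.178). The sum of the 18 GABA-A genes was 412 to 704 CPM in GMYC tumors, 592 to 792 CPM in 7 GTML tumors and 257 CPM in GTML tumor 2.

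Gabra4, an alpha subunit of channels outside synapses, was named after its values were seen because it leaned the other way. It was at 31.8, 62.4 and 71.0 CPM in GMYC and 8.46, 27.5 and 59.4 CPM in GTML tumors, and GTML tumors 2 (57.7 CPM) and 6 (59.4 CPM) were far above the other GTML tumors. The difference did not pass with all tumors (log2 fold change -0.82, SE 0.355, adjusted p = 0.104 by edgeR's quasi-likelihood test) and passed without GTML tumor 2 (-1.0, adjusted p = 0.0392) and narrowly without GTML tumor 6 (-1.03, adjusted p just under 0.05). Gabra2, an alpha subunit of the developing brain, was at 1.55 to 25.7 CPM in GMYC and 1.06 to 12.8 CPM in GTML tumors.

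Of the GABA-A genes, Gabrr2 and Gabrq were called. Gabrr2 encodes a subunit of GABA channels best known from the retina. It was at 1.13, 2.19 and 3.64 CPM in GMYC and 1.46, 5.03 and 44.8 CPM in GTML tumors. GTML tumor 3 (44.8 CPM) was far above the next tumor, GTML tumor 8 (11.3 CPM), and GTML tumors 2 and 6 lay within the GMYC range. The log2 fold change of Gabrr2 was 2.20 (SE 0.674, adjusted p = 0.0316 by edgeR's quasi-likelihood test) with all tumors and 1.26 (adjusted p = 0.0561) without GTML tumor 3. The call was also lost without GMYC tumor 1, 3, 5 or 6, with an adjusted p between 0.0518 and 0.0715. It was 0.60 (adjusted p = 0.721, same test) above and 2.90 (adjusted p = 0.111) below the small nucleolar RNA split. Gabrr2 was not called with small nucleolar RNA content as a term, nor with the covariate from Y-linked genes.

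GTML tumor 3 was also the tumor with the most Gnat1 (121 CPM) and Pde6a (227 CPM), genes of the rod photoreceptor. Summed over 8 photoreceptor markers the GMYC tumors were at 460 to 621 CPM and the GTML tumors at 171 to 1570 CPM, and 6 of the 8 markers passed the test, all higher in GTML. Rcvrn and Gnat1 were at 0 in some GMYC tumors. The part of these cells or this program in the Gabrr2 difference was not tested. The Gabrr2 promoter (chr4:33062862-33063161, GRCm38.p6, plus strand, RefSeq, printed 5′ to 3′) is shown since it held TAATCC, the site bound by the photoreceptor factors CRX and OTX2, here in capitals as its reverse complement starting 246 bases before the start site.
Gabrr2: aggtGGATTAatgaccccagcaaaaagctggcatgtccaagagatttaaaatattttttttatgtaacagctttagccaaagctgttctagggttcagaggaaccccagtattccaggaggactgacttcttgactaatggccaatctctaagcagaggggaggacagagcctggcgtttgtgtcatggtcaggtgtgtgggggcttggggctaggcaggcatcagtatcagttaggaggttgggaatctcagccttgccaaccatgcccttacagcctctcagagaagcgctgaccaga
The letters TAATCC, on either strand, were in the windows of 2 receptor genes, Gabra2 and Gabrr2 (4.65% of receptor windows), and in 7.06% of all windows, so a match is common.

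Gabrq, an X-linked subunit, was called on few counts. It had at most 3 counts in a GMYC tumor and at most 12 in a GTML tumor, and its lowest, median and highest values were 0, 0.144 and 0.422 CPM in GMYC and 0.153, 0.782 and 2.33 CPM in GTML tumors. GTML tumors 1 and 8 lay within the GMYC range. The log2 fold change of Gabrq was 2.22 (SE 0.712, adjusted p = 0.0380 by edgeR's quasi-likelihood test), and it passed in 4 of the 11 fits without 1 tumor in which it was tested. Gabrq passed the filter on low counts through GTML tumors 2, 4 and 6 alone, the model in which it was high, and missed it on either side of the small nucleolar RNA split. It was lost without GMYC tumor 1, 3, 4, 5 or 6 or GTML tumor 3 or 7 (adjusted p between 0.0502 and 0.0757), and missed the filter on low counts without GTML tumor 2, 4 or 6. Gabre, another X-linked subunit, named after its values were seen, was at 0 counts in 5 of the 6 GMYC tumors and at 8 in GMYC tumor 2, and reached 45 counts in GTML tumor 2 and 23 in GTML tumor 6. Its adjusted p was 0.0505 by edgeR's quasi-likelihood test, and its fitted fold depends on how zeros are treated. Gabre passed in 4 of 12 alternative fits and in 3 of the 14 fits that left out 1 tumor. Its adjusted p was 0.0439 by DESeq2 and 0.0825 by limma-voom. In 4 GTML tumors Y-linked counts were near 0, and with a covariate from these counts Gabrq had an adjusted p of 0.0624 and Gabre one of 0.180 in the same test.

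GABA-B receptors are pairs of Gabbr1, which binds GABA, and Gabbr2, which couples to the G protein. Gabbr1 was higher in GTML tumors, at 64.9, 110 and 127 CPM (lowest, median, highest) in GMYC and 57.2, 179 and 224 CPM in GTML tumors. GTML tumor 2 was the lowest of all tumors, and the other 7 GTML tumors, at 155 CPM or more, were above every GMYC tumor. Gabbr1 rose by a log2 fold change of 0.74 (SE 0.234, adjusted p = 0.0354 by edgeR's quasi-likelihood test) with all tumors and 0.87 (SE 0.144, adjusted p = 0.00173) without GTML tumor 2. The call was lost without any 1 of GMYC tumors 1, 3, 5 and 6 and GTML tumors 4, 5, 6 and 7 (adjusted p between 0.0524 and 0.0801). It was -0.03 above the small nucleolar RNA split, where 1 of the 2 GTML tumors is GTML tumor 2, and 1.13 (adjusted p = 0.0180, same test) below it. With small nucleolar RNA content as a term over all tumors, Gabbr1 was not called. Gabbr2 was at 20.8, 49.6 and 84.1 CPM in GMYC and 19.8, 62.4 and 101 CPM in GTML tumors and did not pass (log2 fold change 0.26, SE 0.354), with GMYC tumors 2 and 5 and GTML tumor 2 the lowest.

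Glycine receptors are chloride channels of the spinal cord and hindbrain, built from alpha subunits and Glrb. By edgeR's quasi-likelihood test 0 of the 4 genes tested were called, with 1 at an unadjusted p under 0.05 and against 21.2% of all genes called, and DESeq2 and limma-voom also called 0. Glrb, which anchors the channel at the synapse through gephyrin, was at 8.87, 20.1 and 25.9 CPM in GMYC and 17, 25.0 and 45.5 CPM in GTML tumors (log2 fold change 0.59, SE 0.276, adjusted p = 0.132 by edgeR's quasi-likelihood test). With small nucleolar RNA content as a term, the adjusted p of Glrb was 0.0441 by the same test. GMYC tumors 3 and 5 were low, and 4 GTML tumors were above every GMYC tumor. Glra4, an X-linked alpha subunit, was at 2.55 to 14.0 CPM in GMYC and 5.86 to 29.5 CPM in GTML tumors, highest in GTML tumor 6 (log2 fold change 0.71, SE 0.449). Glra1, the adult alpha subunit, named after its values were seen, was at 29.8 CPM in GMYC tumor 6 and at most 1.99 CPM in the other GMYC tumors, against 0.976 to 20 CPM in GTML tumors. Glra1 had a log2 fold change of 0.89 (adjusted p = 0.488 by edgeR's quasi-likelihood test) with all tumors and 3.29 (adjusted p = 0.0131) without GMYC tumor 6. Its exons share 141 bases (5.84%) with the antisense gene Gm12236.

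Summed by class, the tumors of the 2 models overlapped in all 8 classes. The class sums are dominated by their abundant members and are given as a description. The kainate class was at 102 to 196 CPM in GMYC and 150 to 275 CPM in GTML tumors, the NMDA class at 33.8 to 125 CPM and 62.0 to 219 CPM, and the glycine class at 15.1 to 49.9 CPM and 39.8 to 73.5 CPM. The AMPA class had the same mean in both models, 134 ± 87.9 CPM (SD, n = 6) in GMYC and 134 ± 37.7 CPM (SD, n = 8) in GTML tumors, although Gria2 differed within it. GMYC tumor 5 was the lowest GMYC tumor in the sum over all 51 genes (934 CPM, against 1100 to 1620 CPM in the others), and GTML tumor 2 the lowest GTML tumor (851 CPM, against 1410 to 1880 CPM).

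**Figure D4:**
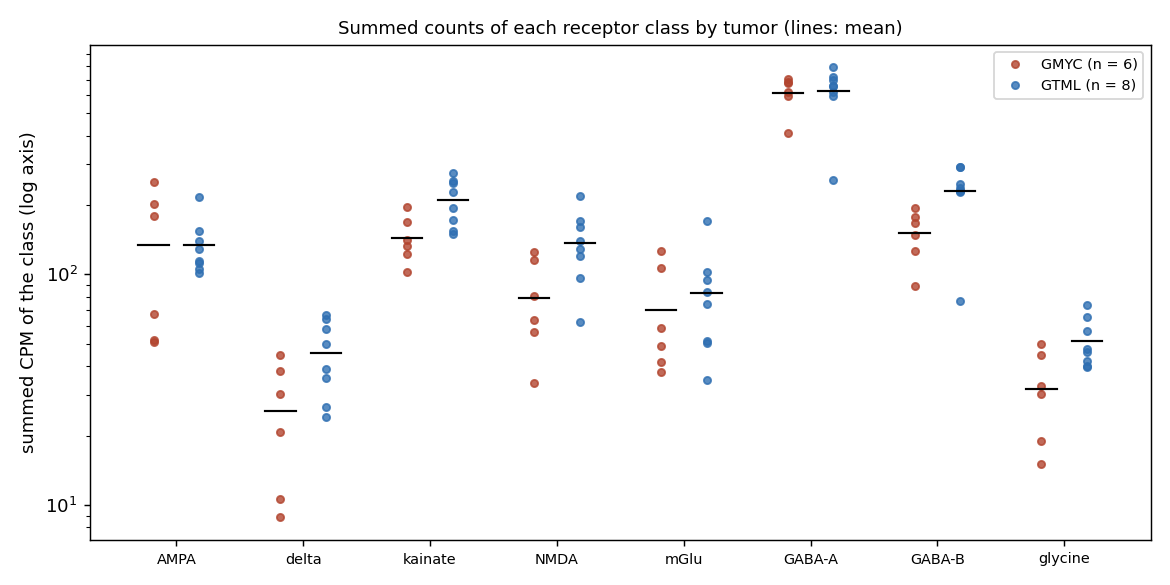
Summed CPM of the genes of each receptor class in every tumor on a log axis, GMYC in red (n = 6) and GTML in blue (n = 8), with lines at the means. The GABA-A class is the largest in every tumor, the AMPA means are equal at 134 CPM, and the low GTML points in the GABA-A (257 CPM) and GABA-B (77.1 CPM) classes are GTML tumor 2.

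Several receptor genes were highest in 1 to 3 tumors, and these tumors were also high in some neuron markers. Gad1, which makes GABA, was at 34.3 CPM in GMYC tumor 1, 39.6 CPM in GMYC tumor 4 and 40.5 CPM in GTML tumor 6, while the other 11 tumors had 7.41 CPM or less. The 8 inhibitory interneuron markers summed to 83.7, 95.4 and 121 CPM in these 3 tumors and to between 3.94 and 24.2 CPM in the others, and 0 of the 8 passed the test between the models. All of these markers but Gad1 and Slc6a5 were at 0 in at least 1 tumor. Their part in the receptor values of these tumors was not tested. Of the other marker lists, 0 of 8 Purkinje cell, 1 of 8 oligodendrocyte, 1 of 9 microglia and macrophage, 1 of 6 endothelial cell and pericyte, 2 of 8 Group 3 medulloblastoma and 1 of 8 general neuron markers were called. The 2 called in the Group 3 list were Myc and Mycn, the driver genes by which the models differ, and no other marker of that list was called.

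In GMYC tumor 1, Gabra6, the granule neuron subunit that missed the filter on low counts, had 279 counts (40.0 CPM), against 61 counts in GMYC tumor 3 and at most 4 in the other 12 tumors. The same tumor was the highest for Gria4 (58.4 CPM), and for the granule neuron markers Fat2 (169 CPM) and Cbln3 (62.6 CPM) and the Purkinje cell marker Calb1 (32.9 CPM). In GMYC tumor 3, Fat2 and Cbln3 were the next highest. Of the other granule neuron markers, Etv1 (23.3 CPM) was also highest in GMYC tumor 1. Slc17a7 (168 CPM), Zic1 (37.5 CPM), Cbln1 (17.5 CPM) and Calb2 (3.3 CPM) were not highest there, and Neurod1 (217 CPM) was lowest of the GMYC tumors. Summed granule neuron markers were at 698 CPM in GMYC tumor 1, 360 to 549 CPM in the other GMYC tumors and 283 to 426 CPM in GTML tumors, with 5 of 8 called (Cbln3, Fat2, Etv1 and Neurod1 lower and Calb2 higher in GTML). Summed Purkinje cell markers were at 462 CPM in GMYC tumor 1 and 112 to 292 CPM in the others. Car8, Ppp1r17, Slc1a6, Itpr1 and Pvalb of that list were also highest in GMYC tumor 1, and Pcp2 and Gad1 were not. Gad1 and Pvalb are on both the Purkinje cell and the interneuron list.

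GMYC tumor 4 and GTML tumor 6 were both high in Grin2b, Grin2a, Grm7 and Gabra3. Grm7, a presynaptic receptor, was at 18.6 CPM in GMYC tumor 4 and at 49.7 CPM in GTML tumor 6, while no other tumor exceeded 7.57 CPM. Gabra3, an alpha subunit of the developing brain, was at 8.76 and 12.6 CPM there, and GTML tumor 2 reached 8.13 CPM. Grm2, an inhibitory receptor of cerebellar Golgi cells, was at 3.91 and 5.43 CPM in these 2 tumors, against at most 2.15 CPM in the others. Of these genes Grm7, Gabra3 and Grm2, and with them Gabra6, were named after their values were seen. GTML tumor 4 had 182 counts of Grin2b with 0.547 CPM of Gad1, so a high Grin2b went without Gad1 in that tumor. Camk2a, a glutamate receptor partner gene outside the interneuron list, was at 75.2 CPM in GMYC tumor 4 and 129 CPM in GTML tumor 6. The other tumors had at most 29.9 CPM. Camk2a was named after its values were seen, and its part in the receptor values was not tested.

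**Figure D5:**
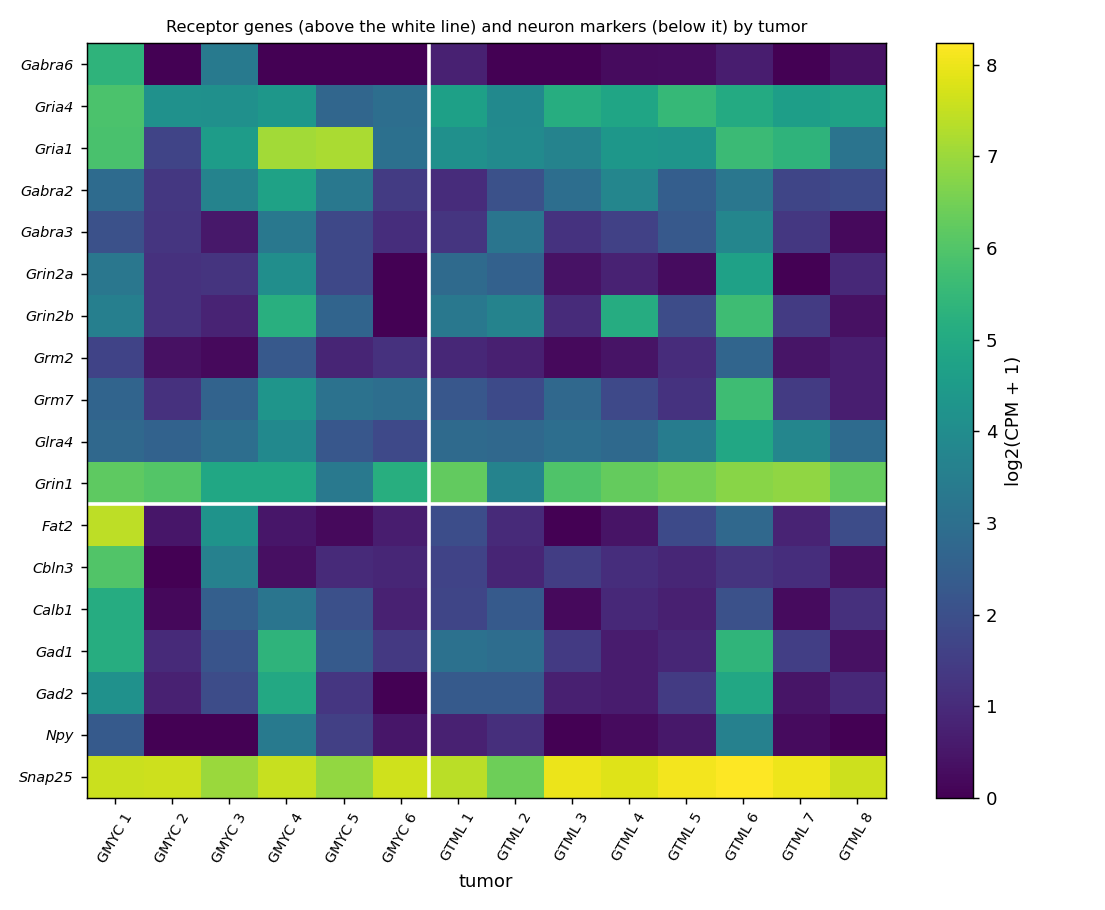
Heat map of log2(CPM + 1) in the 14 tumors (columns, GMYC left and GTML right of the vertical white line) for 11 receptor genes (above the horizontal white line) and 7 neuron markers (below it). GMYC tumor 1 is bright for Gabra6, Fat2 and Cbln3, GMYC tumor 4 and GTML tumor 6 for Gad1, Gad2, Grin2a and Grm7, and GTML tumor 2 is darker than the other GTML tumors for Grin1.

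The calls were counted again without these tumors, an alternative chosen after the data had been seen. With GMYC tumors 1 and 4 and GTML tumor 6 left out, 4 of 46 receptor genes were called higher in GTML (Gria2, Grid1, Grm8 and Grin3b, whose exons share 32.1% of their bases with Tmem259) and 0 higher in GMYC by edgeR's quasi-likelihood test, against 4.41% and 3.65% of all genes tested (8.06% in all). With GTML tumor 2 left out as well, 10 were higher in GTML and 1, Gabra4, higher in GMYC, against 10.5% and 8.54% of all genes (19.0% in all). Gria2, Grid1 and Grm8 had log2 fold changes of 1.21, 2.77 and 2.87 in the first of these fits and 1.21, 2.94 and 3.02 in the second. Grm5 was at -0.63 (adjusted p = 0.108 by the same test) in the first and -0.65 (adjusted p = 0.0846) in the second, so the call of Grm5 was not kept without them. With GTML tumor 2 alone left out, 9 receptor genes were higher in GTML, among them Grin1 and Grik3, and 2 higher in GMYC, Grm5 and Gabra4, against 30.7% of all genes tested.

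The proteins that anchor, modulate or feed these receptors were examined as 3 lists. Of 83 partner genes tested, 18 (21.7%) were called, near the 21.2% of all genes, with 14 higher in GTML and 4 higher in GMYC. Of the 40 auxiliary and scaffold proteins of glutamate receptors, 7 were higher and 2 lower in GTML tumors (22.5% called, against 21.2% of all genes). Grip1 and Grip2, related scaffolds that hold AMPA receptors, moved in opposite directions. Grip1 was at 49.8, 74.9 and 88.3 CPM (lowest, median, highest) in GMYC and 28.9, 37.1 and 48.1 CPM in GTML tumors, a log2 fold change of -0.99 (SE 0.160, adjusted p = 0.00276 by edgeR's quasi-likelihood test). Grip2 was at 0.805, 2.75 and 4.16 CPM in GMYC and 4.56, 9.17 and 13.2 CPM in GTML tumors, a log2 fold change of 1.76 (SE 0.358, adjusted p = 0.00649 by edgeR's quasi-likelihood test). Neither gene overlapped between the models, against 4.62% of all genes tested without overlap. Apart from Camk2a above, the partners described singly were named for having the smallest p of their list. Homer1, which links metabotropic receptors such as Grm5 to calcium stores, was also without overlap, at 130 to 156 CPM in GMYC and 72.8 to 109 CPM in GTML tumors (log2 fold change -0.59, SE 0.101, adjusted p = 0.00338 by the same test). These 3 genes passed in all 14 fits that left out 1 tumor. Below the small nucleolar RNA split Grip1 (adjusted p = 0.0273 by the same test) and Grip2 (0.0257) passed and Homer1 did not (0.0580), and above it none of the 3 passed (adjusted p of 0.294, 0.282 and 0.232).

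Of the 18 partners of GABA and glycine receptors tested, 3 were higher and 1 lower in GTML, which is 22.2% called against 21.2% of all genes. Kctd8, an auxiliary subunit of the GABA-B receptor, was at 13, 15.3 and 39.5 CPM in GMYC and 4.43, 7.67 and 11.1 CPM in GTML tumors. Its values did not overlap between the models, against 4.62% of all genes tested without overlap. Kctd8 fell by 1.38 on the log2 scale (SE 0.293, adjusted p = 0.00757 by edgeR's quasi-likelihood test), with an adjusted p of at most 0.0177 in the 14 fits without 1 tumor. It had an adjusted p of 0.0232 below and 0.363 above the small nucleolar RNA split. Slc12a5, the chloride exporter KCC2 that makes GABA inhibitory in mature neurons, was at 7.78, 17.1 and 62.0 CPM in GMYC and 22.3, 71.1 and 156 CPM in GTML tumors (log2 fold change 1.54, SE 0.467, adjusted p = 0.0300 by edgeR's quasi-likelihood test). GTML tumors 2 and 8 lay within the GMYC range. Slc12a5 passed in 9 of 14 fits without 1 tumor and was lost without GMYC tumor 2, 3, 5 or 6 or GTML tumor 3 (adjusted p between 0.0517 and 0.0703). By edgeR's quasi-likelihood test its adjusted p was 0.0271 below and 0.746 above the small nucleolar RNA split. Iqsec3, a gephyrin-binding protein of inhibitory synapses, was at 14.5, 63.8 and 83.3 CPM in GMYC and 22.4, 164 and 242 CPM in GTML tumors (log2 fold change 1.40, SE 0.432, adjusted p = 0.0324 by edgeR's quasi-likelihood test). GTML tumor 2 (22.4 CPM) lay among the GMYC tumors and the other 7 GTML tumors were above them, and the sign turned above the small nucleolar RNA split (-0.23), while the adjusted p below it was 0.0330 by the same test. The call of Iqsec3 was lost without GMYC tumor 1, 3 or 5 or GTML tumor 5, 6 or 7 (adjusted p between 0.0509 and 0.0694).

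Of 25 genes of transmitter synthesis and transport tested, 4 were higher and 1 lower in GTML, which is 20% called against 21.2% of all genes. Gls2, a glutaminase that makes glutamate from glutamine, was at 18, 27.2 and 39.5 CPM in GMYC and 10.3, 14.7 and 21.9 CPM in GTML tumors, a log2 fold change of -0.95 (SE 0.219, adjusted p = 0.0103 by edgeR's quasi-likelihood test). Slc1a7, a glutamate transporter best known from the retina, was at 0, 0.465 and 5.66 CPM in GMYC and 3.42, 17.5 and 63.7 CPM in GTML tumors, with 7 GTML tumors above every GMYC tumor and GTML tumor 3 the highest (log2 fold change 3.81, SE 0.889, adjusted p = 0.0106 by edgeR's quasi-likelihood test). Both passed in all 14 fits that left out 1 tumor. Below the small nucleolar RNA split Slc1a7 passed (adjusted p = 0.0166 by the same test) and Gls2 did not (0.0915), and above it neither passed (0.379 and 0.323).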

How the data were processed

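RNA from 6 GMYC and 8 GTML fresh-frozen tumor biopsies was sequenced on the Ion Proton. According to the study's methods, the authors mapped reads on mm9 by two-pass STAR and then by Bowtie, and gene counts were taken by featureCounts on GENCODE models. The submitters' processing notes name STAR 2.4.0, Bowtie2 2.2 and Subread 1.5.2. The table they deposited holds whole-number counts of 37310 genes with no normalization. Whether counting used strand and whether duplicates were removed is not given in the sources used here. A second deposited table, with 18 columns that no sample label names, was not used.

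Ensembl identifiers were looked up in GENCODE vM21 (GRCm38) for symbols, exon lengths and gene types, which matched 32620 of the 37310 genes (87.4%). Since the counts were made on mm9, coordinates are given for RefSeq promoter windows (GRCm38.p6) alone, which 35 of the 51 receptor genes had, 43 windows in all. On both strands 7 motifs were searched, namely the E-boxes CACGTG and CAGCTG and CATCTG, the CRX site TAATCC, the GC box GGGCGG, and, from the REST element, GGACAGCG and TTCAGCACC.

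Counts were scaled by TMM and tested with edgeR 4.0.16 in R 4.3.3 (quasi-likelihood test, Benjamini-Hochberg adjustment over 21024 genes that exceeded 1 CPM in at least 3 tumors, threshold 0.05). CPM values are TMM-scaled. The study's own comparison left out an outlier GTML tumor that also showed an SHH-like signature. The labels do not say which tumor that was, and all 8 GTML tumors were tested here. The study's methods used voom, tried here as an alternative (limma 3.58.1), beside DESeq2 1.42.0, other scalings and filters, a stricter call rule, the replicate number as a block, small nucleolar RNA content (split at 0.3% of counts) as a term, each side of that split, a covariate from Y-linked genes, and leaving out each tumor. Leaving out the tumors with Gad1 above 30 CPM, with and without GTML tumor 2, was added after the data had been seen. The exon overlaps were taken from the same annotation. Plots used matplotlib 3.10.9 and Python 3.11.15.

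The receptor genes, the partner lists and the marker lists were chosen with earlier results of these data known. Named were Grin1 and Gria2, the called members, the 2 members of each class with the highest median CPM per exon kilobase, the genes of the subunit ratios, and the 3 genes with the smallest p in each partner list, with 25 receptor and 8 partner genes reported. Results for some genes are not reported here. Gabra3, Gabra4, Gabra6, Gabre, Glra1, Grik3, Grm2, Grm7 and the markers quoted singly were named after their values were seen, as were Grin3b, the partner Camk2a and the members named as not tested.

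No pair of tumors of 1 model agreed within sampling noise (lowest chi-square over its degrees of freedom, 5.67). The test was tried on simulated counts for 20609 genes of this comparison, where 36 of 98 genes changed by 1 on the log2 scale, 75 of 100 changed by 2 and 8 of 20411 unchanged genes were called. Spread between tumors exceeded counting error, so precision rests on both.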

Additional observations from a re-analysis of the deposited data

Results flagged for a closer look

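In 19 of 82 groups of values (1 gene in the tumors of 1 model), the highest or the lowest tumor lay far from the rest, with a gap to the next tumor that exceeded Dixon's 95% limit for the group's range. For independent, normally distributed values the limit flags about 1 in 20 groups, which is 4.1 of 82. CPM values need not be normally distributed, and the groups share tumors, with 6 flags from GTML tumor 6. The rate is therefore a rough guide and no test. Of the groups, 16 belong to genes named after their values were seen, several because 1 tumor stood out, and these gave 7 of the 19. The genes named by rule gave 12 of 66 groups, where the same rate gives 3.3. The values are CPM and the cause was not tested.

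GTML tumor 2 was lowest of the GTML tumors for Gabbr1 (57.2, next 155) and Gabrb2 (58.6, next 94.2), and highest for Grik2 (94.5, next 62.8). GTML tumor 3 was highest for Gabrr2 (44.8, next 11.3) and Grik1 (41.6, next 15.9). GTML tumor 6 was highest for Grm7 (49.7, next 5.82), Glra4 (29.5, next 12.6), Grin2a (25.2, next 6.17), Gria3 (21.5, next 10.1), Grm2 (5.43, next 1.08) and Gabrq (2.33, next 1.14).

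GMYC tumor 1 was highest of the GMYC tumors for Gria4 (58.4, next 19.3) and Gabra6 (40.0, next 9.33). GMYC tumor 4 was highest for Grin2b (36, next 10.8), Grm7 (18.6, next 7.57) and Gabra3 (8.76, next 3.16). GMYC tumor 6 was highest for the GABA-B auxiliary subunit Kctd8 (39.5, next 21.8) and for Glra1 (29.8, next 1.99), and GMYC tumor 2 for Gabre (1.13, with the other 5 at 0).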

How the results depend on the processing

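Of 8 receptor genes called higher and 1 called lower in GTML, Grm8, Grid1, Grik4 and Grm5 passed in all 14 fits that left out 1 tumor, but Grik4 was lost under limma-voom and Grm5 with the Y-linked covariate and the small nucleolar RNA term. Over these fits between 3 and 10 receptor genes were higher in GTML and between 1 and 2 in GMYC, against between 1433 and 3264 and between 1184 and 3166 of all genes, and between 6 and 19 and between 4 and 5 partner genes. DESeq2 called 11 receptor genes higher in GTML and 2 in GMYC (Grm5 and Grm7), against 3305 and 2547 of all genes. The fit with no filter on low counts also called 2 in GMYC, against 1629 of all genes. Limma-voom called 3 receptor genes higher in GTML, against 2101 of all genes. It lost Grik4 (adjusted p = 0.0506), Gabrq (0.0554), Grik5 (0.0668), Gabbr1 (0.0804), Gabrr2 (0.0963) and the partner Iqsec3 (0.0871). Under the stricter rule (0.01, more than 1 on the log2 scale), 2 and 0 receptor, 3 and 1 partner and 444 and 232 of all genes were higher in GTML and GMYC. With small nucleolar RNA content as a term, 5 receptor genes were higher in GTML and 0 in GMYC, with 7 partner and 1428 of all genes higher in GTML. These 5 were Gabre, Glrb, Grid1, Grik4 and Grm8, and only 3 of them are among the 9 main calls. Gria2, Gabrr2, Grik5, Gabbr1, Gabrq and Grm5 were not called with this term. In the tumors above the split, 0 and 0 receptor, 0 and 0 partner and 0 and 2 of all genes were called, with 2 GTML tumors, 1 of which is GTML tumor 2. Below it, 0 receptor genes were higher in GMYC, and 1328 and 1334 of all genes were called. With the covariate from Y-linked genes, 5 and 0 receptor genes, 8 partner genes higher in GTML and 1136 and 555 of all genes were called. The receptor genes kept were Gabbr1, Gria2, Grid1, Grik4 and Grm8, while Gabrr2, Grik5, Gabrq and Grm5 were lost. Without the 3 tumors with Gad1 above 30 CPM the calls were 4 and 0 receptor genes, 7 partner genes higher in GTML and 903 and 748 of all genes. The split and Gad1 fits hold fewer tumors, and the causes of these changes were not tested.

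The replicate number as a block (tumors 1 to 6 of each model) left 1 and 0 receptor genes, 1 and 0 partner genes and 161 and 90 of all genes, and the receptor gene called was Grik4. The numbers were not taken to pair the tumors, since deviations of same-numbered tumors correlated between -0.25 and 0.224, and 2 of 12 tumors correlated best with their own number.

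Without division by exon length, the mean log2 ratio of Gria2 to the AMPA sum was -1.49 in GMYC and -0.81 in GTML tumors, in place of -2.38 and -1.48. The median log2 fold change of all genes was 0.04 and, with no filter, 0.18.

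Among the genes reported by name, signs turned for genes that were not called in the main fit, with the exception of Gabbr1 (-0.03) and the partner Iqsec3 (-0.23) above the split. There, Gabbr2 was at -0.16, Gabrb2 at -0.13, Glra4 at -0.39, Gria4 at -0.51, Grik1 at -0.10, Grin1 at -0.13, Grin2b at -0.23, Grin2c at -0.12, Grm3 at -0.13, Grm7 at -1.25 and Grik3 at -0.63. Below the split, Gabra2 was at 0.25, Grik2 at 0.13, Grm2 at 0.32 and Glra1 at -0.23. With the split as a term, Grin2a was at 0.76 and Grm7 at -0.31. With the Y-linked covariate, Gria3 was at 0.08, Grin2a at 0.74, Grm3 at -0.02 and Grm2 at 0.31. In the block fit, Grm7 was at -0.31. DESeq2 gave 0.00 for Grin2a and -1.39 for Grm7, and limma-voom -0.84 for Grm7. Grm7 was at 0.18 in the main fit and was called higher in GMYC by DESeq2 (adjusted p = 0.0332). Without the tumors with Gad1 above 30 CPM, Grin2a was at 0.58 and Grm7 at -0.99, and with GTML tumor 2 left out as well, Grin2a was at 0.16 and Grm7 at -0.98.

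Leaving out 1 tumor turned the sign of 6 genes that were not called. Their ranges were -1.37 to 0.80 for Grin2a, -1.51 to 0.69 for Grm7, -1.27 to 0.33 for Grm2, -0.23 to 0.68 for Grik1, -0.09 to 1.91 for Grin2b and -0.15 to 1.16 for Gabra3. Gabrq rests on at most 12 counts in a tumor, and depth limits what can be said of genes at a few counts.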
